A study of Mus musculus with 12 samples.

Results

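The mitochondrial ribosomal protein genes of the mouse were followed across 12 RNA-seq libraries from the extensor digitorum longus (EDL), a fast limb muscle. They were taken as the rows of the deposited count table whose Ensembl identifier carries, in the GRCm38 annotation, a protein-coding symbol that starts with Mrpl or Mrps and a number. The rule found 78 of the 55573 genes in the table, of which 21980 are protein-coding. It uses names only, and no measured value. The libraries come from C57BL/6 mice and form 4 groups of 3. A group holds single myofibers (1 fiber a library), fibers pooled by 5, fibers pooled by 20, or the whole EDL. No treatment or genotype separates the groups. Fibers were lysed directly, while Trizol was used on whole muscle, so the way the RNA was obtained cannot be told apart from the difference between fibers and muscle. Libraries of every group used SMART-Seq HT, a kit that amplifies full-length cDNA from very little RNA. The labels give no age, sex, animal or date. Nothing says that libraries of a group came from separate animals, so p-values measure only the spread between these libraries, which may be technical.

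Mitochondria make a small set of proteins themselves, all of them membrane subunits of the respiratory chain and the ATP synthase. They do so on their own ribosome, whose rRNAs are encoded in mitochondrial DNA while every one of its proteins is encoded in the nucleus, made in the cytosol and imported. The small subunit binds the mRNA and decodes it, and the large subunit joins amino acids and anchors the ribosome to the inner membrane. Of the genes found, 26 encode small subunit proteins and 51 large subunit proteins. Mrps30 and Mrps18a are counted with the large subunit, where their proteins sit in the mammalian structure. Mrps36 is kept as the rule found it, although its product is now assigned to the 2-oxoglutarate dehydrogenase complex. By the ribosomal protein nomenclature, 46 of the genes encode a protein named after a bacterial one and 31 a protein with a mitochondria-specific name. Mrps18a and Mrps18b stand with the mitochondria-specific names, although they and Mrps18c are paralogs related to the same bacterial protein, S18.

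Totals ran from 4702823 to 27787120 counted reads a library, and reads on the 78 genes from 8757 to 208505. Some fiber libraries carried reads on genes not known as muscle genes: of 1504 olfactory, vomeronasal and taste receptor genes, between 4.85% and 26.7% had a read in single fibers, between 4.59% and 68.8% in pools of 5, between 78.7% and 97.3% in pools of 20, and between 2.33% and 4.85% in whole muscle. At that read density per exon length, background would make up 21.3% of the mitoribosomal reads in 20-fiber pool 2 and at most 1.75% in any other library. Mitochondrial rRNA took 38.3% and 34.2% of the reads in 5-fiber pools 1 and 2, and at most 12.5% elsewhere. Single fiber 2 and 5-fiber pool 3 stood apart from the rest of their groups in the level of the genes described here, and 20-fiber pool 2 stood apart in background. Fiber markers such as Acta1 and Ckm summed to between 158900 and 279100 CPM (read counts scaled to library size with TMM factors) in single fibers, between 55000 and 269000 in pools of 5, between 15060 and 98160 in pools of 20, and between 68530 and 91090 in whole muscle. All 4 adipocyte markers were called lower in single fibers than in whole muscle, and their sum lay between 0.0 and 0.584 CPM in single fibers and between 783.0 and 982.6 CPM in whole muscle, with all of them at 0 in single fiber 3. The fibroblast markers summed to between 8.18 and 184 CPM in single fibers and between 3029 and 3421 CPM in whole muscle, with 5 of 5 called lower. Of the endothelial markers 6 of 6 were called lower in single fibers, of the erythroid ones 4 of 4 and of the macrophage ones 3 of 4, while 5 of 8 fiber markers were called higher. In these bulk libraries, fewer cells of a type and less RNA per cell cannot be told apart, and the part of other cell types in the results below was not tested.

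Promoters of mitoribosomal genes are known for sites of nuclear respiratory factor 1 (NRF1), of ETS factors such as GABP, and of YY1, which are regulators of nuclear genes for mitochondria. RefSeq (GRCm38.p6) promoters, 250 bases before to 50 bases from the gene start on, were found for 69 of the 78 genes. A search on both strands for the NRF1 motif (GCGC and TGCGC with 1 base of any kind between them), CCGGAAG (ETS) and AANATGGC (YY1) found the NRF1 letters in 18.8% of these genes and in 7.45% of all protein-coding genes in the same table, the ETS letters in 37.7% and 13.4%, and the YY1 letters in 30.4% and 7.59%. The GC box GGGCGG (Sp1) was found in 49.3% and 51.0%, and TATAAA in 7.25% and 14.3%. The promoters below belong to genes that the results turn on: Mrps21, Mrpl30, Mrpl52 and Mrpl23 had the highest fold changes in single fibers, and Mrpl22 and Mrps18b were among the lowest in pools of 20. They are written 5′ to 3′ on the strand of the gene, with letters of the NRF1, ETS and YY1 motifs in capitals. Mrps21 lies at chr3:95871465-95871764 (minus strand), Mrpl30 at chr1:37890227-37890526 (plus), Mrpl52 at chr14:54426659-54426958 (plus), Mrpl23 at chr7:142532782-142533081 (plus), Mrpl22 at chr11:58171414-58171713 (plus) and Mrps18b at chr17:35916391-35916690 (minus).
Mrps21: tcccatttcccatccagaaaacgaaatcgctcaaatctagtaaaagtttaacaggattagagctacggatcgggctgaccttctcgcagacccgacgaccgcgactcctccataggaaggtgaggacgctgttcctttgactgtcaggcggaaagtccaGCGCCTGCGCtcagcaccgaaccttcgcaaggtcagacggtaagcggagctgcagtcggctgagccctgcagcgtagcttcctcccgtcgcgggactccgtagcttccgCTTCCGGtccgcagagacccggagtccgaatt
Mrpl30: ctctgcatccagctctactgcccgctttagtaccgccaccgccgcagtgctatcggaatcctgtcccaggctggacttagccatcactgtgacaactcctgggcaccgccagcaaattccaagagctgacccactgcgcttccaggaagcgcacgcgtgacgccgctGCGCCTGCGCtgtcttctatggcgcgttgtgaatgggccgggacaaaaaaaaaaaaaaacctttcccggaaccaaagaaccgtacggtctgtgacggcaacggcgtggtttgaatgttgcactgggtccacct
Mrpl52: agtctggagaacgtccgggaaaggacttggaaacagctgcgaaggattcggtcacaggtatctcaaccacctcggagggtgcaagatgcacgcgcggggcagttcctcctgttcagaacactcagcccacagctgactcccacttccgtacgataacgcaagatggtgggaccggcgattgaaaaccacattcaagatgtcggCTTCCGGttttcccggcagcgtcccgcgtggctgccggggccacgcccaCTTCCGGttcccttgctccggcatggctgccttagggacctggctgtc
Mrpl23: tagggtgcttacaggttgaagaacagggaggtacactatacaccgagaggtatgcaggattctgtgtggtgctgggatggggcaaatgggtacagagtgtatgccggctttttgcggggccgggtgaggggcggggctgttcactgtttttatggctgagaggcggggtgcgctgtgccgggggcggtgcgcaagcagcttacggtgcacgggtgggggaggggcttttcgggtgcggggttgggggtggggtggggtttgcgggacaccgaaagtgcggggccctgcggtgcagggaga
Mrpl22: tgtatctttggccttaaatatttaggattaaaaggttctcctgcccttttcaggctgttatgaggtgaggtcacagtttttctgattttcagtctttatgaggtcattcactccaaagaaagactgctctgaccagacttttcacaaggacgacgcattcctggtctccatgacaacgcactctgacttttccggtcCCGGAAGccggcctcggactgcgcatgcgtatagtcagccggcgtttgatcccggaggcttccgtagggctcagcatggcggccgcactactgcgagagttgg
Mrps18b: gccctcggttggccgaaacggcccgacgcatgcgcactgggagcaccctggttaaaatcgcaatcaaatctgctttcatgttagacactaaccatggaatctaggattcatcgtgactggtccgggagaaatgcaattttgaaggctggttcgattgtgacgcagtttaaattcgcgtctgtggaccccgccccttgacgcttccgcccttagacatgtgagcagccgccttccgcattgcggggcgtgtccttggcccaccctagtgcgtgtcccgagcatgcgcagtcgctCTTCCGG
The Mrps21 promoter held the NRF1 letters starting 91 bases before the gene start and the ETS letters after it, and the Mrpl30 promoter held the NRF1 letters 83 bases before the start. Mrpl52 held the ETS letters in 2 places, Mrpl22 and Mrps18b in 1 place each, and no capitals fell in the Mrpl23 window. Genes with and without the letters were both among those called: of the 18 genes called higher in single fibers that have a promoter here, 3 held NRF1, 8 ETS and 7 YY1 letters, and of the 51 others 10, 18 and 14 did. A match describes letters in a window and is not a bound site.

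The mitoribosomal genes were detected in nearly every library. Between 77 and 78 of them had a read in each, also after all libraries were thinned to 4702823 reads. The exception was Mrpl53, a large subunit gene at chr6:83109040-83109939 (plus strand, GRCm38), with 2 reads in single fiber 3, 2 reads in whole muscle 2 and none in the other libraries. Of its exon bases, 88.0% overlap other genes. How such reads were counted is not given in the sources used here, so a low count need not mean a low level. It was left out by the filter on low counts, and the other 77 genes were tested in every comparison.

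Per kilobase of exon, levels in whole muscle spanned a wide range. Mrps28 (small subunit, homolog of bacterial S1) was highest at 166.9 ± 32.6 CPM per kilobase in whole muscle (SD, n = 3), followed by Mrpl42 at 151.1 ± 15.7, Mrps21 (homolog of bacterial S21) at 117 ± 44.5, Mrpl14 at 82.6 ± 19.5, Mrpl55 at 81.5 ± 10.3 and Mrpl54 at 78.7 ± 23.9. Neighbors in this order had overlapping intervals of 1 SD. At the low end stood Mrpl19 at 3.82 ± 0.467, Mrps5 at 3.58 ± 0.285 and Mrps35 at 3.44 ± 0.169 CPM per kilobase, above Mrpl53. In single fibers the order changed at the top: Mrps21 was first at 454 ± 180.1 CPM per kilobase, Mrpl42 second at 353.5 ± 229 and Mrps28 next at 279 ± 228, again with overlapping intervals. Mrps21 was also first in pools of 5 and in pools of 20, where Mrps28 ranked 4 and 10. As a share of all mitoribosomal reads, Mrpl42 alone took 11.8% to 16.8% in single fibers, 8.93% to 16.95% in pools of 5, 6.19% to 10.5% in pools of 20 and 11.4% to 12.3% in whole muscle. Exon length here is that of all annotated exons merged, which lowers the value of genes with long, rarely used exons.

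Together the 78 genes were higher in single fibers than in whole muscle by TMM scaling, but not by other scalings. Their summed level was 7951, 13530 and 5531 CPM in single fibers 1 to 3, against 4058, 4816 and 5160 CPM in whole muscle 1 to 3. Every single fiber was above every whole muscle library, and single fiber 2 was far above the other fibers. Pools of 5 held 4183, 2957 and 13310 CPM and overlapped whole muscle, with pool 3 as high as single fiber 2. Pools of 20 held 3516, 632 and 3277 CPM, all under whole muscle, and lowest in pool 2. As a share of all counted reads, the sums were 5019, 7504 and 4896 RPM (scaled to total reads only) in single fibers against 6482, 6815 and 7317 in whole muscle, so that direction turned for 2 of 3 fibers. As a share of reads on nuclear protein-coding genes they were 6385, 10150 and 6285 RPM in single fibers against 7369, 7531 and 8152 in whole muscle. The difference in mean log2 sum between single fibers and whole muscle was 0.85 by TMM, -0.27 by all counted reads and -0.05 by protein-coding reads. For pools of 5 it was 0.24, -1.01 and -0.11, and for pools of 20 it was -1.26, -1.13 and -0.75, the same direction by all 3. In 20-fiber pool 2 the gene Gm10800 took 20.89% of all counted reads, against at most 1.045% in any other library. Its reads and the background enter the total, which lowers the share in that pool. Pools 1 and 3 held 3636 and 4550 RPM by all counted reads and 5955 and 6425 by protein-coding reads, also under whole muscle.

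**Figure D1:**
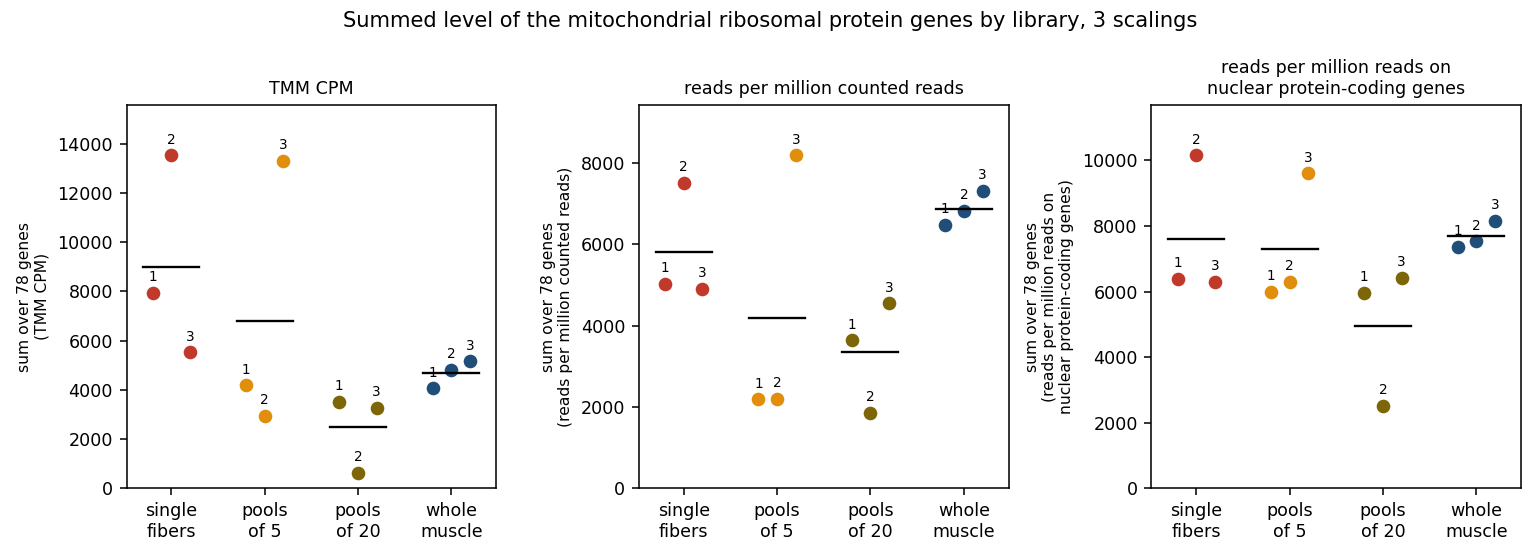
Summed level of the 78 mitoribosomal genes in each library under 3 scalings (vertical axes from 0), by group from single fibers to whole muscle. Points are libraries with their replicate number and lines are group means; single fiber 2 (13530 CPM) and 5-fiber pool 3 (13310 CPM) lie above the rest by TMM, and pools of 20 lie under whole muscle in all 3 panels.

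Single fibers held higher levels than whole muscle of 20 of the 77 tested genes, and lower levels of none, by edgeR's quasi-likelihood test at an adjusted p under 0.05. Among all genes tested, 13.9% were called higher and 19.8% lower. The median log2 fold change was 0.62 over the mitoribosomal genes and -0.12 over all genes tested, and 61 of the 77 lay above 0. Protein-coding genes with a mean of at least 10 CPM also rose. From the shortest to the longest mRNA length class, their medians were 0.55, 0.33 and 0.29, against mitoribosomal medians of 0.97, 0.58 and 0.33. In these classes 254 of 890, 233 of 1155 and 859 of 3977 were called higher, and 89, 123 and 397 lower. Of the mitoribosomal genes, 9 of 26, 6 of 25 and 5 of 26 were called higher. The share called higher is therefore not read as particular to the mitoribosomal genes. The called genes came from both subunits, 8 of 26 from the small and 11 of 50 from the large, plus Mrps36. By origin, 12 of 46 genes with a bacterial counterpart and 7 of 30 mitochondria-specific ones were called. Other cell types' markers moved with this comparison as given above.

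Mrpl23 (homolog of bacterial L23, at the tunnel exit of the large subunit; chr7:142532686-142540747, GRCm38) had the highest fold change. It measured 304, 361 and 157 CPM in single fibers against 43.8, 62.9 and 77.6 CPM in whole muscle, with no overlap (4.25-fold higher, log2 fold change 2.09, SE 0.34, edgeR adjusted p = 0.00481). Of its 50-base windows, 51.7% also occur in another gene, such as the pseudogene Mrpl23-ps1, so its reads may be split or shared. Mrps21 measured 312, 478.5 and 215 CPM in single fibers against 49.3, 96.4 and 113 CPM in whole muscle, again without overlap (log2 fold change 1.90, SE 0.38, edgeR adjusted p = 0.00909). Mrpl52, a mitochondria-specific large subunit protein, measured 142, 163 and 86.2 CPM in single fibers against 20.3, 36.0 and 49.95 CPM in whole muscle (log2 fold change 1.82, SE 0.37, edgeR adjusted p = 0.00933). Mrpl30 (homolog of bacterial L30) measured 606, 636 and 363 CPM in single fibers against 155, 170.1 and 178 CPM in whole muscle, and its 3 whole muscle values were close together (log2 fold change 1.61, SE 0.26, edgeR adjusted p = 0.00451). Mrpl54 followed with a log2 fold change of 1.55, Mrps36 with 1.40 and Mrpl58, a peptidyl-tRNA hydrolase that became a ribosomal protein, with 1.34.

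The other called genes had log2 fold changes between 0.89 and 1.35. Mrpl57, Mrpl21, Mrpl13, Mrpl55 and Mrpl35 of the large subunit had 1.35, 1.21, 1.14, 1.06 and 1.01, and Mrps25, Mrps27, Mrps24, Mrps7, Mrps10 and Mrps15 of the small subunit had 1.27, 1.24, 1.17, 1.02, 0.96 and 0.89. Mrps7 is the homolog of bacterial S7, which organizes the head of the small subunit, and measured 182, 187 and 128 CPM in single fibers against 68.9, 78.5 and 87.7 CPM in whole muscle. Mrps27, which belongs to the pentatricopeptide repeat family of RNA-binding proteins, measured 46.3, 66.1 and 35.8 CPM in single fibers against 20.3, 19.9 and 19.9 CPM in whole muscle. By TMM-scaled CPM, the lowest single fiber was above the highest whole muscle library in all of the 20 called genes. The same held for 28 of the 77 tested genes and for 2970 of all 14028 genes tested. The test used the same libraries, so this is not separate evidence, and it depends on the scaling. As a share of all mitoribosomal reads, 11 of the tested genes lay above whole muscle in this way and 29 under it. Set against the same total, 818 of all 14028 genes tested lay above and 7247 under. For the reason given below with the shares of single genes, this is not a like comparison, and nothing is read from these counts.

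Of the 3 paralogs of bacterial S18, Mrps18a and Mrps18c were both called higher in single fibers with a log2 fold change of 1.32, while Mrps18b had 1.11 and was not called (edgeR adjusted p = 0.102). Mrpl12, whose protein forms the stalk that recruits translation factors and also binds the mitochondrial RNA polymerase, had 0.29 and Mrps12, of the decoding center, 0.84, both not called. Mrpl41 had -0.04. The lowest values belonged to Mrps5 at -0.69 (edgeR adjusted p = 0.074) and Mrps30 at -0.55 (0.119), neither of them called. Mrps5, the homolog of bacterial S5, measured 18.3, 15.96 and 11.1 CPM in single fibers against 22.3, 25.7 and 22.6 CPM in whole muscle, without overlap.

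The number of calls in single fibers depended on the whole muscle libraries: without whole muscle 1, 2 or 3 it was 5, 2 or 6, all higher. Without single fiber 2 it was 21 higher, the 20 among them, and 9 lower, and without single fiber 3 it was 31 higher. A fit on all 12 libraries called none, and the cause was not tested.

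**Figure D2:**
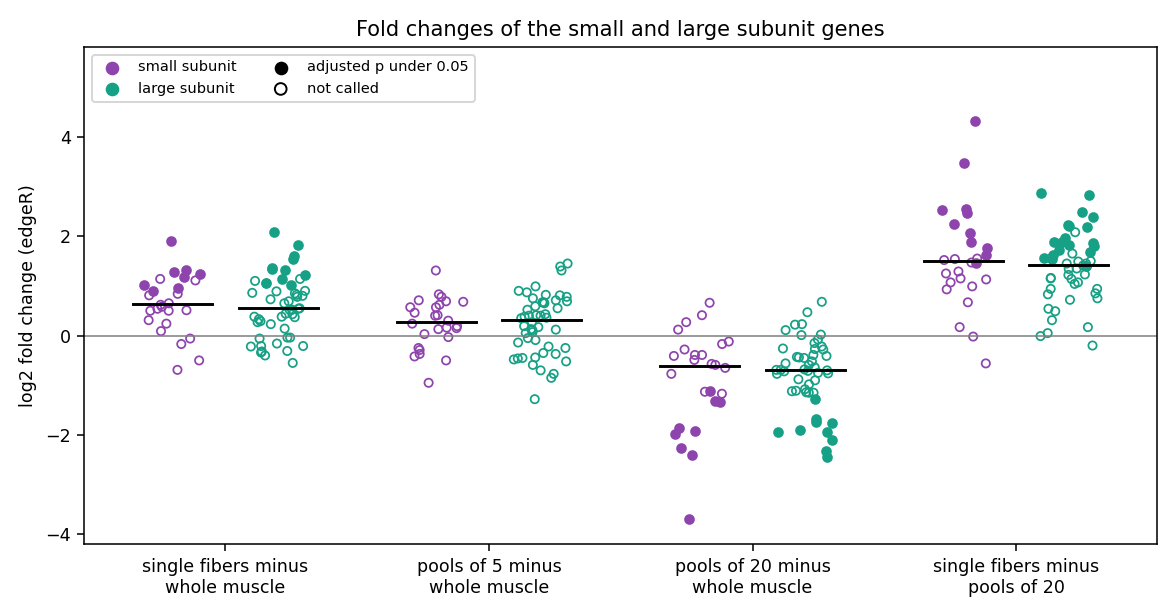
Log2 fold change (edgeR) of each small subunit and large subunit gene in 4 comparisons, named below the axis. Filled points have an adjusted p under 0.05 and lines are medians; calls lie above 0 in single fibers (20 with Mrps36, which is not drawn), are absent in pools of 5, lie under 0 in pools of 20 (19) and lie above 0 in single fibers set against pools of 20 (32 with Mrps36).

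Among the mitoribosomal genes, those with shorter mRNAs had the higher fold changes in single fibers. In the shortest of 3 length classes (405 to 815 bases) the median log2 fold change was 0.97 and 9 of 26 genes were called, in the middle class 0.58 and 6 of 25, and in the longest class (1424 to 6073 bases) 0.33 and 5 of 26. Across the 77 genes the Spearman correlation between mRNA length and log2 fold change was -0.37, and -0.35 over the 66 genes with under 30% of their windows in another gene. Across 6022 protein-coding genes with a mean of at least 10 CPM it was 0.00. Those genes too had a higher median in the shortest class, at 0.55, than in the other 2, at 0.33 and 0.29. The fold change followed level more closely than length. Its Spearman correlation with mean CPM over the 12 libraries was 0.63 across the 77 genes, 0.65 across the 66 and 0.37 across the 6022. That mean includes the single fibers, so it is not independent of the fold change. Length and level were not separated. These are descriptions across genes that share their libraries.

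**Figure D3:**
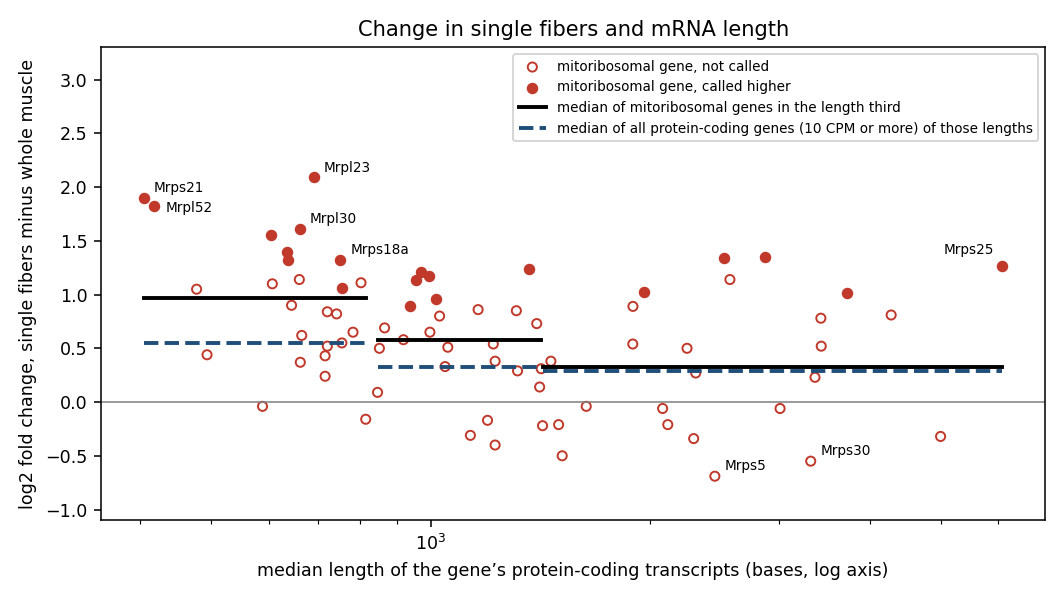
Log2 fold change of the mitoribosomal genes, single fibers minus whole muscle, by the median length of each gene's protein-coding transcripts (bases, log axis). Filled points are called higher; the median was lower in each longer class (0.97, 0.58 and 0.33, solid lines), while that of protein-coding genes in the same length classes was 0.55, 0.33 and 0.29 (dashed lines).

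In pools of 5, none of the 77 genes was called against whole muscle by edgeR in either direction, 3 had an unadjusted p under 0.05, and DESeq2 called 2 higher. Among all genes tested 4.63% were called higher and 4.22% lower. TMM gave 52.3% of all calls as higher, RLE factors 63.6% and upper-quartile factors 60.2%. The median log2 fold change was 0.30 over the mitoribosomal genes and -0.03 over all genes. The 3 pools differed widely: Mrpl23 measured 81.6, 57.6 and 402.5 CPM in pools of 5 against 43.8, 62.9 and 77.6 CPM in whole muscle (log2 fold change 1.45, SE 0.71, edgeR adjusted p = 0.235). Mrpl52 measured 79.7, 55.2 and 161 CPM in pools of 5, all above whole muscle (1.39, SE 0.49, edgeR adjusted p = 0.12). Mrpl50 measured 12.75, 8.16 and 52.5 CPM in pools of 5 against 57.7, 58.5 and 50.7 CPM in whole muscle (-1.28, SE 0.63, edgeR adjusted p = 0.24). Mrps31, the other low gene, had -0.95. Pool 3 decided these values: without it, 3 genes were called higher and 31 lower. The share of all genes called in that fit is not given here, so these counts are not read as particular to the mitoribosomal genes.

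Pools of 20 held lower levels than whole muscle of 19 of the 77 genes and higher levels of none (edgeR), where 30.3% of all genes tested were called higher and 13.5% lower. The median log2 fold change was -0.69 over the mitoribosomal genes and 0.38 over all genes, and 66 of the 77 lay under 0. Protein-coding genes with a mean of at least 10 CPM also fell, with medians of -0.53, -0.78 and -0.17 from the shortest to the longest length class. Of these, 214 of 896, 387 of 1155 and 827 of 3978 were called lower, against 6 of 26, 6 of 25 and 7 of 26 mitoribosomal genes. The fall is therefore not read as particular to the mitoribosomal genes. Of the 26 small subunit genes 9 fell, and of the 50 large subunit genes 10. Mrps34, a mitochondria-specific small subunit protein, fell most: it measured 0.6805, 0.289 and 1.83 CPM in pools of 20 against 11.45, 17.0 and 20.35 CPM in whole muscle (log2 fold change -3.70, SE 0.49, edgeR adjusted p = 8.13e-05). These are 6, 4 and 39 reads in the pools, at or under the 99th percentile of receptor gene density in pools 1 and 2. Its exons overlap the genes Nme3 and Mapk8ip3 over 77.8% of their bases, and how such reads were assigned is not given in the sources used here.

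Mrpl24 (homolog of bacterial L24) measured 1.70, 0.938 and 2.96 CPM in pools of 20 against 10.5, 14.95 and 13.7 CPM in whole muscle (log2 fold change -2.44, SE 0.40, edgeR adjusted p = 0.000276). Mrps18b measured 2.61, 1.66 and 2.96 CPM in pools of 20 against 14.3, 17.45 and 17.3 CPM in whole muscle (-2.40, SE 0.34, edgeR adjusted p = 0.000122). Other genes hold 56.0% of its 50-base windows, 33.5% of those of Mrpl24 and 33.4% of those of Mrpl22. Mrpl22 (homolog of bacterial L22) measured 5.78, 2.02 and 10.5 CPM in pools of 20 against 36.7, 37.2 and 39.9 CPM in whole muscle (-2.33, SE 0.44, edgeR adjusted p = 0.000557). The groups did not overlap for any of these. In 20-fiber pool 2, 15 of the 78 genes did not exceed the 99th percentile of receptor gene density, Mrpl24, Mrps18b, Mrps31, Mrps33 and Mrps34 among them.

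Mrps33 fell by 2.27 on the log2 scale, Mrpl50 by 2.10, Mrps31 by 1.98, Mrps28 by 1.86 and Mrpl1 by 1.68. The remaining 10 called genes (Mrpl4, Mrpl32, Mrps14, Mrpl39, Mrpl36, Mrpl46, Mrps22, Mrps10, Mrpl21 and Mrps2) lay between -1.95 and -1.12. Mrps14, the homolog of bacterial S14 and one of the more abundant of them, measured 37.4, 9.88 and 43.1 CPM in pools of 20 against 141, 131 and 146 CPM in whole muscle. Mrps10 and Mrpl21 were called in opposite directions against whole muscle, higher in single fibers (0.96 and 1.21) and lower in pools of 20 (-1.31 and -1.28). The highest values, Mrpl52 at 0.68 and Mrps23 at 0.66, were not called. Adipocyte markers summed to between 1.59 and 6.57 CPM in pools of 20 and endothelial markers to between 45.2 and 524 CPM, against 1066 to 1178 CPM for endothelial markers in whole muscle, and their part in these results was not tested. Without 20-fiber pool 1, 43 genes were called lower; without pool 2, the background-rich library, 42 were lower and 5 higher, with all 19 among them.

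Single fibers stood above pools of 20 for 32 of the 77 genes and under them for none (edgeR). Among all genes tested 8.52% were higher and 27.5% lower. The median log2 fold change was 1.46 over the mitoribosomal genes and -0.74 over all genes. Over protein-coding genes with a mean of at least 10 CPM it was 1.06, 1.08 and 0.46 from the shortest to the longest length class. Of these, 249 of 891, 363 of 1153 and 655 of 3977 were called higher, against 13 of 26, 9 of 25 and 10 of 26 mitoribosomal genes. Mrps34 measured 26.8, 39.0 and 11.4 CPM in single fibers against 0.6805, 0.289 and 1.83 CPM in pools of 20 (log2 fold change 4.32, SE 0.66, edgeR adjusted p = 0.00409). Mrps18b measured 28.01, 68.5 and 15.85 CPM in single fibers against 2.61, 1.66 and 2.96 CPM in pools of 20 (3.47, SE 0.56, edgeR adjusted p = 0.00462). Mrpl22 followed with 2.86 and Mrpl24 with 2.82. The lowest, Mrps5 at -0.56 and Mrpl3 at -0.20, were not called. Leaving out single fiber 2 lowered the count to 15, leaving out 20-fiber pool 2 to 16, and subtracting the receptor gene density from every gene to 15.

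Between single fibers and pools of 5, edgeR called none of the 77 genes (1 with an unadjusted p under 0.05; DESeq2 none), and 0.0157% of all genes tested. The largest values were 1.14 for Mrpl1 and 1.09 for Mrpl50, and -0.94 for Mrps5 and -0.51 for Mrps6. Without 5-fiber pool 3, 5 genes were called higher in single fibers. Between pools of 5 and pools of 20 none was called (10 with an unadjusted p under 0.05; DESeq2 none), nor any other gene (0.0%), although the median was 1.32. Mrps34 had 3.64 (SE 1.19) and Mrps18b 3.11 (SE 1.10), both with an edgeR adjusted p of 0.53. Without 5-fiber pool 2, 2 genes were called higher in pools of 5.

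With the 3 fiber groups averaged, none of the 77 genes was called against whole muscle by edgeR, 4 had an unadjusted p under 0.05, and DESeq2 called 2 higher. Among all genes tested 7.46% were higher and 7.78% lower. TMM thus gave 49.0% of calls as higher and upper-quartile factors 65.1%. The median was 0.06 over the mitoribosomal genes and 0.40 over all genes by TMM, and 0.28 and 0.69 by upper-quartile factors. Mrpl52 had 1.26 (SE 0.59, edgeR adjusted p = 0.14) and Mrps21 1.18, while Mrpl50 had -1.24 (SE 0.51, edgeR adjusted p = 0.0934) and Mrps34 -1.23. The outcome turned on which libraries were kept. Without the 5 libraries in which over 50% of receptor genes had a read, 22 genes were called higher and Mrps34 had 0.69. These libraries are 5-fiber pools 1 and 2 and all pools of 20. They had the lowest summed levels of the fiber libraries, from 632 to 4183 CPM. Leaving them out raises the fiber side by construction and takes pools of 20 out of the comparison, so no conclusion is drawn from these calls either. Without single fiber 2 and 5-fiber pool 3, 17 were called lower. Single fiber 2 and 5-fiber pool 3 had the highest summed levels of the mitoribosomal genes (13530 and 13310 CPM). Leaving them out thus lowers the fiber side by construction, and no conclusion is drawn from those calls. Without 5-fiber pool 3 alone 12 were lower, without single fiber 2 alone 3 were lower, and without 20-fiber pool 2 alone 1 was higher.

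**Figure D4:**
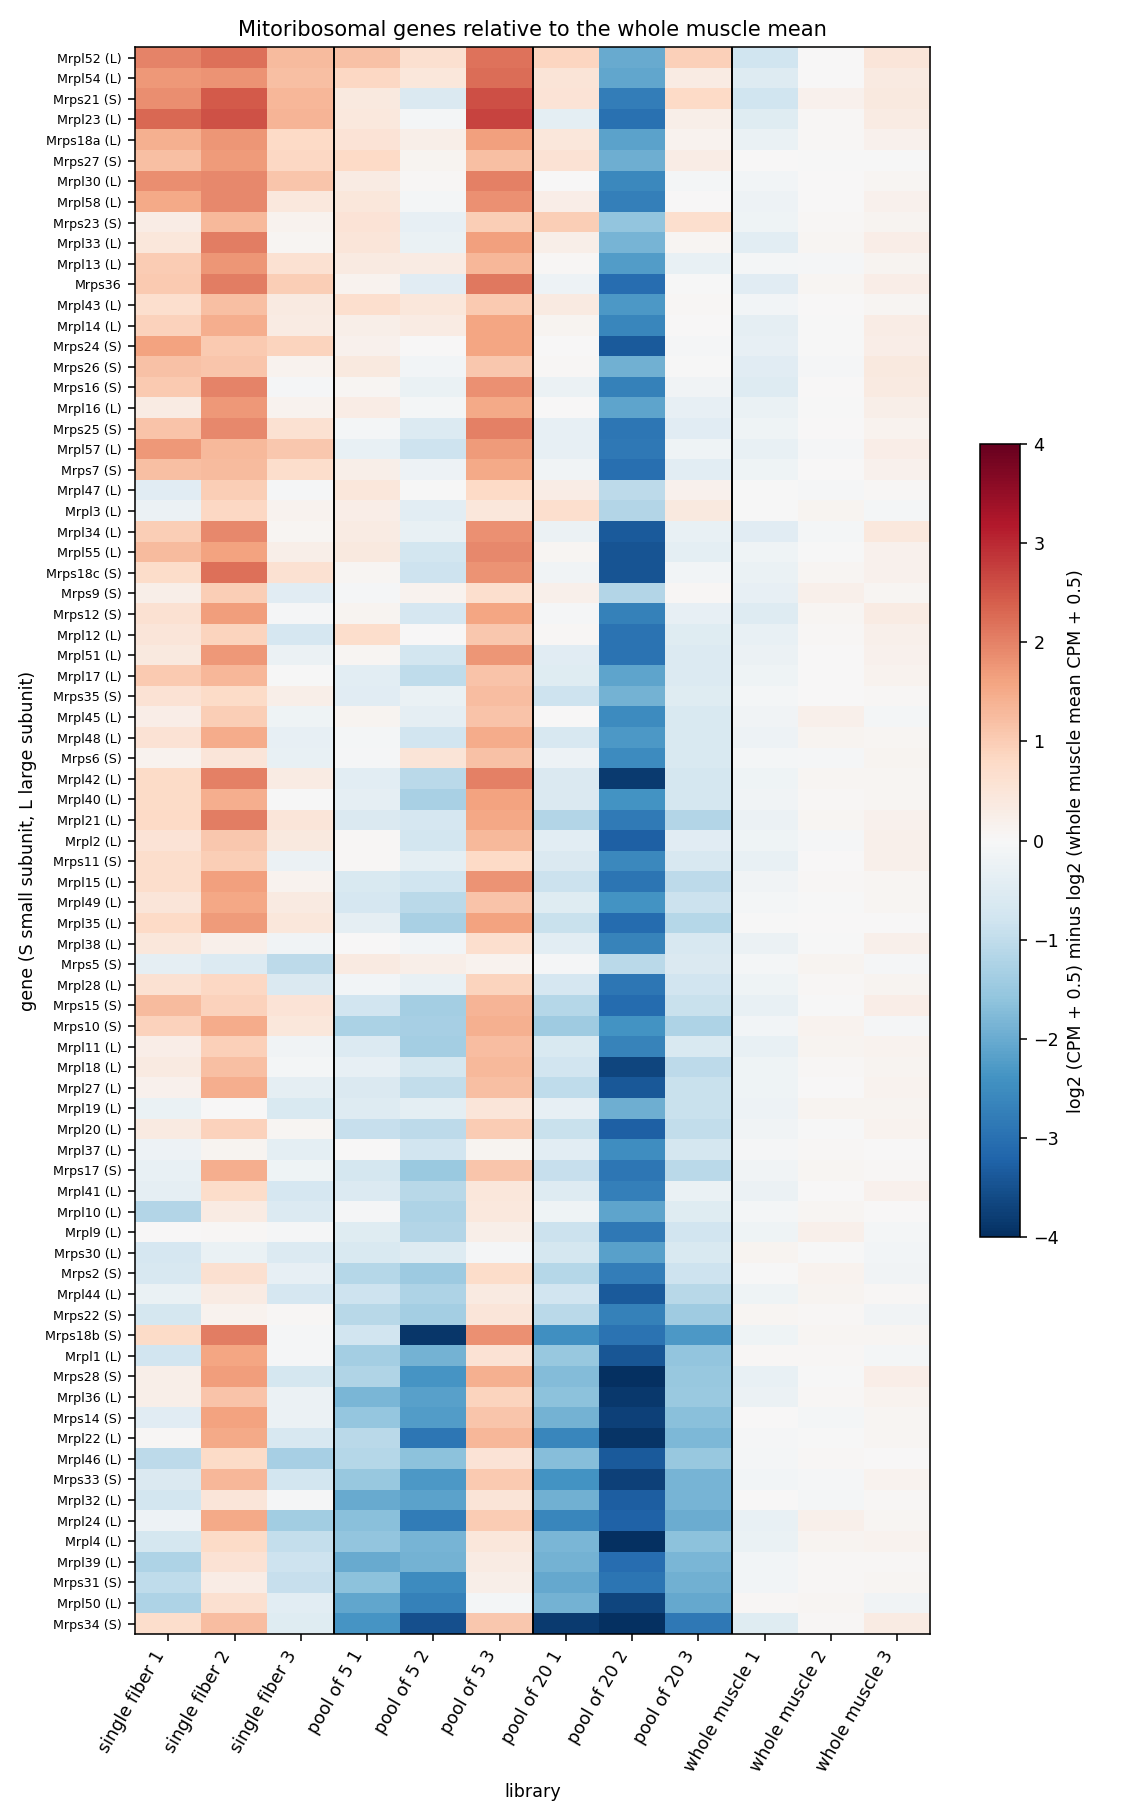
Log2 difference of each tested mitoribosomal gene (rows, ordered by the mean over fiber libraries) from its whole muscle mean, in the 12 libraries (columns). Single fiber 2 and 5-fiber pool 3 are red for most genes and 20-fiber pool 2 is blue for all; Mrpl52, Mrpl54 and Mrps21 head the order and Mrpl50 and Mrps34 end it.

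Libraries of a group varied least in whole muscle. With TMM scaling, the median SD of log2 CPM over the 77 tested mitoribosomal genes was 0.67 in single fibers, 1.12 in pools of 5, 1.2 in pools of 20 and 0.17 in whole muscle, against 0.54, 0.66, 0.94 and 0.16 over 6183 genes averaging at least 10 CPM. With the totals thinned to 4702823 reads and no TMM factors, it was 0.42, 1.07, 0.58 and 0.12 over the mitoribosomal genes and 0.54, 0.64, 0.47 and 0.17 over the same 6183 genes, so the place of pools of 20 in this order depended on the scaling. Reads on the mitoribosomal genes still ran from 8757 to 38634 a library after thinning. Among genes averaging at least 10 CPM, Mrpl9 (homolog of bacterial L9) was the steadiest in single fibers, with 45.8, 47.0 and 44.3 CPM, followed by Mrps30. Mrpl24 varied most there, with 11.3, 38.5 and 4.72 CPM, and Mrpl1, Mrps28 and Mrps33 also varied widely.

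The composition of the mitoribosomal mRNA pool, which library scaling does not enter, is described by the shares of single genes and was not tested. Background reads enter these shares, most in 20-fiber pool 2. As a share of all mitoribosomal reads, 4 genes were higher in each of the 9 fiber libraries than in any whole muscle library (Mrpl30, Mrpl52, Mrpl54 and Mrps18a), and 12 were lower (Mrpl4, Mrpl18, Mrpl20, Mrpl27, Mrpl32, Mrpl36, Mrpl39, Mrpl44, Mrpl46, Mrpl50, Mrps31 and Mrps33). Among all genes tested, set against the same total, 2.33% were higher and 3.91% lower in this way. Dividing by that total removes variation that the mitoribosomal genes share between libraries and adds it to other genes. These percentages are therefore not a like comparison, and no excess is read from the counts. As CPM of the mitoribosomal total alone, Mrpl52 had between 12060 and 21100 in the fiber libraries (median 17800) and 4997, 7467 and 9680 in whole muscle. Mrpl39, a mitochondria-specific large subunit protein, had between 1678 and 5367 in the fiber libraries (median 2812) and 7286, 6845 and 6390 in whole muscle. Its highest fiber value came from 20-fiber pool 2. The ratio of large to small subunit reads per exon length was 1.88, 1.84 and 1.88 in single fibers, all under the whole muscle range of 2.04 to 2.30, while pools of 5 (1.90 to 2.65) and pools of 20 (1.85 to 2.298) overlapped whole muscle. Short, abundant genes weigh heavily in this ratio. Mrps21, with 739 exon bases, had 454 CPM per kilobase in single fibers and 117 in whole muscle. Against whole muscle, the median log2 fold change in single fibers was 0.63 over small and 0.54 over large subunit genes. No shift between the subunits is therefore read from the ratio, and the part of single genes in it was not tested.

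Set against other gene groups, mitoribosomal reads were a smaller share relative to the cytosolic ribosome in fibers than in whole muscle. They amounted to 23.1%, 46.3% and 30.2% of the reads on cytosolic ribosomal protein genes in single fibers, 26.4%, 22.8% and 47.6% in pools of 5, 28.8%, 35.5% and 24.3% in pools of 20, and 84.2%, 75.4% and 69.6% in whole muscle. No fiber library reached any whole muscle library. Of 78 cytosolic ribosomal protein genes tested, 75 were called higher and 1 lower in single fibers than in whole muscle, with a median log2 fold change of 2.07. Against reads on nuclear-encoded respiratory chain genes, the mitoribosomal reads overlapped between groups, at 13.7%, 9.92% and 13.2% in single fibers, 7.66%, 7.43% and 11.6% in pools of 5, 9.02%, 14.5% and 9.72% in pools of 20, and 12.5%, 11.8% and 11.8% in whole muscle. Of 81 respiratory chain genes, 23 were called higher and 3 lower in single fibers.

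**Figure D5:**
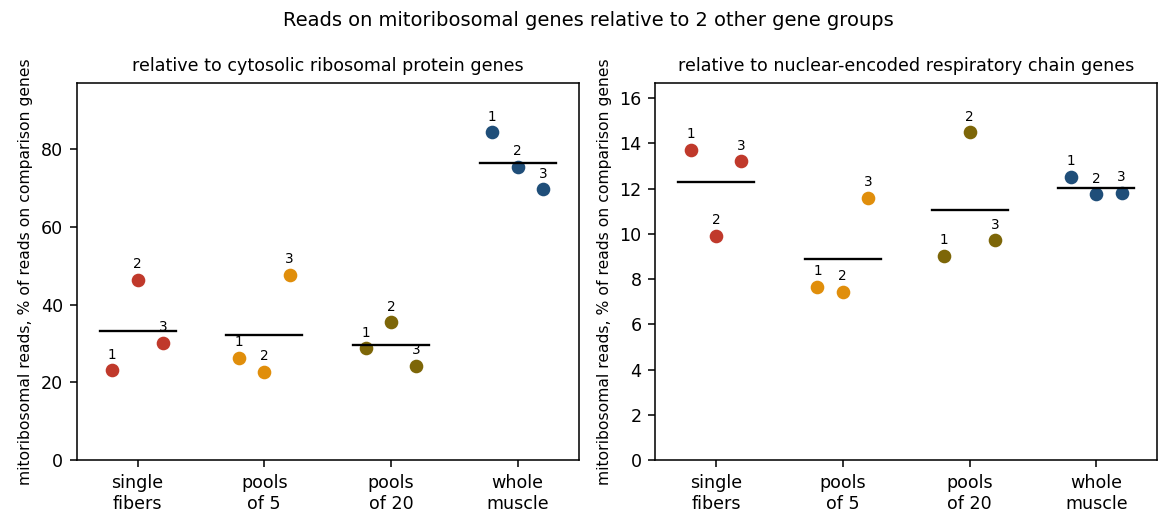
Reads on the mitoribosomal genes as a percentage of the reads on cytosolic ribosomal protein genes (left) and on nuclear-encoded respiratory chain genes (right), by library, with group means as lines. On the left the fiber libraries lie at 22.8% to 47.6% and whole muscle at 69.6% to 84.2%; on the right the groups overlap.

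Lists of other genes that work with the mitoribosome are read against all genes tested, of which 19.8% were called lower in single fibers and 13.5% in pools of 20. Of 12 mitochondrial translation factors, 1 (8.33%) fell in single fibers and 5 (41.7%) in pools of 20, and none rose. Taco1, an activator of cytochrome oxidase subunit 1 translation, measured 5.46 ± 4.52 CPM in single fibers and 19.9 ± 3.21 CPM in whole muscle (SD, n = 3 each), a log2 fold change of -1.94 with an edgeR adjusted p of 0.0257. It was also called lower in pools of 5 (-2.66) and in pools of 20 (-2.50). Of 23 assembly and rRNA maturation genes, 4 (17.4%) fell in single fibers (Ddx28, Eral1, Gtpbp10 and Rbfa) and 7 (30.4%) in pools of 20. In single fibers neither share was above that of all genes. Rbfa, which matures the small subunit rRNA, had -1.35 in single fibers and -4.35 in pools of 20. Of 17 mitochondrial aminoacyl-tRNA synthetases 2 (11.8%) fell in single fibers, again under the share of all genes, and of 5 ribosomal proteins with other symbols none was called there, while Ptcd3 fell by 1.68 on the log2 scale in pools of 20. Of 13 tested regulators of mitochondrial transcription and biogenesis, Myc (3.69), Ppargc1a (2.93), which encodes the coactivator PGC-1α, and Yy1 (1.45) rose in single fibers and Esrra, an orphan nuclear receptor, fell (-1.27). Ppargc1a averaged 137 ± 92.5 CPM in single fibers and 18.1 ± 0.677 CPM in whole muscle (SD, n = 3 each). Gabpa, the ETS factor subunit of GABP, averaged 10.8 ± 3.56 CPM in single fibers and 20.9 ± 4.11 CPM in whole muscle (edgeR adjusted p = 0.0567), and fell by 1.43 in pools of 20. Nrf1 had -0.31 in single fibers and 0.20 in pools of 20, neither called.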

How the data were processed

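RNA-seq counts of 12 mouse EDL libraries were analysed. The authors deposited raw read counts in whole numbers, 1 row for each Ensembl gene; the submitters' processing notes name HISAT2, SAMtools and featureCounts and the builds GRCm38 and mm10. Versions, strand and multi-mapping settings and the annotation release are not given in the sources used here. Of 55573 identifiers, 55480 matched GENCODE vM21, which gave symbols, lengths and coordinates. The members and gene lists were chosen with earlier results of these data known.

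A comparison of 2 groups was fitted on their 6 libraries only, and the mean of the fiber groups against whole muscle on all 12, with edgeR 4.0.16 in R 4.3.3 (TMM, filterByExpr, glmQLFit, glmQLFTest). Benjamini-Hochberg adjustment ran over all genes tested, with a threshold of 0.05 and no fold minimum. CPM use TMM factors over 12 libraries, so a ratio of mean CPM can differ from a fitted fold. Comparisons with whole muscle share its 3 libraries. DESeq2 1.42.0, other factors, no filter, left-out libraries and a replicate block were tried; the fits were tested on simulated data. Libraries of a group were checked for copies, and none were found. Named genes are the called genes with the largest fold changes in each comparison and direction (up to 4, or 6 for fibers averaged; at least 2, given as values where not called), the 6 highest and 4 lowest per kilobase in whole muscle, 9 chosen by role, and the genes of largest and smallest SD in single fibers. Counts of non-overlapping shares name every gene they count. Mrpl39, Mrps14, Nrf1 and the remaining genes called in single fibers (Mrpl13, Mrpl21, Mrpl35, Mrpl57, Mrps7, Mrps10, Mrps15, Mrps24, Mrps25 and Mrps27) were named with values outside this rule, after their values were seen. Of the other lists, called genes were named.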

Additional observations from a re-analysis of the deposited data

Results flagged for a closer look

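The level of each of the 33 named genes and 4 summed measures, 37 quantities in all, were compared over the 9 fiber libraries. Of these, 3 had a library set apart from the others by Dixon's ratio at the 95% level. Chance alone flags about 1 in 20 of independent, normally distributed quantities, whereas these share their libraries. Mrpl1 was highest in single fiber 2, at 183 CPM. Mrpl53 was highest in single fiber 3, at 0.178 CPM, which is 2 reads where the other fiber libraries had none. With reads in only 1 library a flag is fixed in advance, so that of Mrpl53 is not read as an outlier. Mrps30 was lowest in 20-fiber pool 2, at 6.21 CPM. The effects of single fibers and of pools of 20 against whole muscle differed for 32 of the 77 tested genes, by the edgeR test of single fibers against pools of 20, all higher in single fibers.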

How the results depend on the processing

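Counts of called genes moved with single libraries. Here and above, counts from fits with libraries left out are given without the share of all genes called in the same fit. They are not read as particular to the mitoribosomal genes. Over fits without 1 library each, they ran from 0 to 12 for fibers averaged against whole muscle, 2 to 31 for single fibers, 0 to 34 for pools of 5 and 13 to 47 for pools of 20, and from 0 to 5 for single fibers against pools of 5, 15 to 40 against pools of 20, and 0 to 2 for pools of 5 against pools of 20. For fibers averaged, DESeq2 called 2, subtracting background density 2, leaving out the libraries with many receptor reads 22, and leaving out single fiber 2 and 5-fiber pool 3 17; for single fibers the fit on 12 libraries called 0; for pools of 5 DESeq2 called 2; for single fibers against pools of 20, no filter gave 15 and subtracting background density 15. The cause was not tested. The labels do not say whether equal replicate numbers pair libraries. Same-number correlations ran from -0.403 to 0.455. Without correlations between different numbers beside them, they cannot tell whether libraries are paired. With a replicate block, single fibers had 9 calls against whole muscle and 0 against pools of 20. The background subtraction, the left-out sets of libraries a fit on protein-coding genes only and the SDs with TMM scaling were chosen after seeing the data. Directions turned for fibers averaged in Mrpl12 (-0.13), Mrps12 (-0.24) and Mrps18c (-0.15) without single fiber 2 and 5-fiber pool 3, in Mrpl41 (0.05), Mrps18b (1.33) and Mrps34 (0.69) without the receptor-rich libraries, and in Mrps18b (0.36) with 2 groups only. Against pools of 20 they turned in single fibers for Mrps5 (0.00) and Mrpl3 (0.23) without a filter and for Mrpl3 (0.14) in the fit on 12 libraries, and in pools of 5 for Mrpl3 (0.07) without a filter. Without 1 library, values ran from -0.16 to 0.27 for Mrpl12 and -0.06 to 0.48 for Mrps12 (fibers averaged), -0.01 to 0.87 for Mrps23 (pools of 20 against whole muscle), -0.65 to 0.10 for Mrps5 and -0.28 to 0.37 for Mrpl3 (single fibers against pools of 20), and -0.41 to 0.41 for Mrpl3 (pools of 5 against pools of 20). Low-count genes in pools of 20 are limited by depth and background.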

Other observations

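Pseudogenes of the mitoribosomal genes also carried reads. Mrpl23-ps1, which shares sequence with Mrpl23, had 49, 77 and 39 reads in single fibers, 14, 8 and 69 in pools of 5, 23, 7 and 30 in pools of 20, and 9, 20 and 38 in whole muscle. Mrps36-ps1 had 26, 54 and 21 reads in single fibers, 10, 6 and 38 in pools of 5 and 4, 3 and 19 in pools of 20, against 6, 19 and 28 in whole muscle. The other 3 pseudogenes counted (Mrpl48-ps, Mrps36-ps2 and Mrps36-ps3) had at most 13 reads in any library.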
